A study of Mus musculus with 2 samples.

Results

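Cyp2e1 and Cyp2f2 are a pair of abundant liver cytochromes P450 that mark opposite ends of the liver lobule. Both were taken by symbol from the deposited table of transcript levels, which lists 24054 genes, 100 of them cytochromes P450 other than pseudogenes. The data are liver RNA of 8 to 12 week old male C57BL/6 mice of 2 genotypes, WT and Pgrmc1 KO (Pgrmc1 -/Y). The KO mice lack Pgrmc1 exons 1 and 2 in the whole body after Sox2-Cre recombination of a floxed allele made on C57BL/6N, with a B6 Sox2-Cre line whose Cre acts in the early embryo. The sources used here do not say whether the WT mice carried Cre. RNA from the livers of 5 mice per genotype, 2.5 μg each, went into 1 pooled library per genotype. Variation from mouse to mouse was lost in the pool, so the differences below have neither a replicate check nor a p-value.

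Cytochromes P450 are heme enzymes of the endoplasmic reticulum that oxidize drugs, toxicants, fatty acids and steroids. Hepatocytes do not share this work evenly. Cells around the central vein, where Wnt signals from the vein endothelium act through β-catenin, hold most drug-oxidizing enzymes, and cells around the portal tract hold most of gluconeogenesis and the urea cycle. Cyp2e1 is a pericentral enzyme that oxidizes ethanol, acetone and other small molecules and converts acetaminophen to its reactive product NAPQI. Cyp2f2 is the periportal exception among abundant P450 enzymes and is best known for activating naphthalene in the club cells of mouse lung. Pgrmc1 is a heme-binding membrane protein that binds P450 enzymes, and the RNA-seq was made to ask whether its loss lowers P450 transcripts.

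Both genes lie on chromosome 7 of GRCm38 on the plus strand. Cyp2e1 (Entrez gene 13106) spans 140763819 to 140774990, and Cyp2f2 (Entrez gene 13107) spans 27119955 to 27133660. Their main coding transcripts are of nearly equal length in GENCODE, with 1833 bases in 9 exons for Cyp2e1 and 1866 bases in 10 exons for Cyp2f2. The promoters are shown because these genes are active at opposite ends of the lobule and their upstream sequences can be compared letter by letter. Each run is the 250 bases before the RefSeq start, 5′ to 3′ on the plus strand (GRCm38.p6). Capitals mark matches to 3 motifs. The first is TATAAA, which is the core of a TATA box. Then comes the CCAAT box, which here was found on the minus strand and so reads ATTGG in the run. Also marked is the motif of TCF/LEF, factors that carry β-catenin, searched as CTTTGAA and, besides that form, as CTTTGAT or with the ending changed to CTTTGTA or else to the form CTTTGTT.
Cyp2e1, chr7:140763569-140763818: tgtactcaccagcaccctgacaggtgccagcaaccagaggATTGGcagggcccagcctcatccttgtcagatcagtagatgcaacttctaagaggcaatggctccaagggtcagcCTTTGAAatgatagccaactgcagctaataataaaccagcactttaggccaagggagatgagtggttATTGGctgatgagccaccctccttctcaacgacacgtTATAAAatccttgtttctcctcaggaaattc
Cyp2f2, chr7:27119705-27119954: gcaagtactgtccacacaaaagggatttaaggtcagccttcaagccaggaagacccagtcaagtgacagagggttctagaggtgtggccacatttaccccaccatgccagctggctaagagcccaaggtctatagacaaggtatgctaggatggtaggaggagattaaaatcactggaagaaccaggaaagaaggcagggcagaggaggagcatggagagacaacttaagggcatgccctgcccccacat

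The Cyp2e1 window holds 1 TATA box, which begins 31 bases before the start, 1 TCF/LEF match at 135 bases before it, and CCAAT boxes at 68 and 210 bases before it. The Cyp2f2 window holds none of these letters on either strand. The windows depend on the start used. The first GENCODE start lies 80 bases upstream of the RefSeq start for Cyp2e1 and 46 bases upstream for Cyp2f2, so by that annotation the end of each run, with the TATA box and the nearer CCAAT box of Cyp2e1, is transcribed, and the bases further upstream that would fill a window there were not searched. Over the 32851 windows of the same length in the RefSeq promoter table, searched on both strands, a TATA box is found in 12.4%, a CCAAT box in 33.9% and a TCF/LEF match in 14.8%. Neither window holds a C/EBP match (TTGCNNAA, in 9.56% of windows). The base composition of the windows is similar, with 48.8% G and C for Cyp2e1 and 51.6% for Cyp2f2. These matches describe the letters in the windows and show no binding.

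Levels are given in TPM, a length-corrected share of all transcripts in a library, so different genes can be compared. Intervals are 95% counting intervals from estimated reads, which cover counting error only and not differences between mice. The 2 libraries hold about 22086707 estimated reads on genes in KO and 29710376 in WT. Pgrmc1 itself stood at 949.49 TPM in WT against 0.68 in KO, which follows the labels. Changes are log2((KO TPM + 1)/(WT TPM + 1)), which for genes as abundant as these differs little from the plain log2 ratio.

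Cyp2e1 stood at 4411.33 TPM in WT (95% interval 4387 to 4435) and 4759.85 TPM in KO (4731 to 4789). The KO level was 1.08-fold the WT level, a log2 change of 0.11 (95% interval 0.098 to 0.12, on 105050 and 130082 estimated reads in KO and WT). The intervals of the levels do not overlap, so the difference is larger than counting error. Cyp2f2 stood at 756.15 TPM in WT (747 to 766) and 688.69 TPM in KO (678 to 699). Its KO level was 0.911-fold the WT level, a log2 change of -0.13 (-0.16 to -0.11, on 16015 and 23499 estimated reads). Its intervals do not overlap either. The periportal gene was thus lower in KO and the pericentral gene higher, both by less than the fold thresholds of 1.4 and 0.6 used in the study. Of 11623 genes averaging 1 TPM or more, 1.09% were at 1.4-fold or more and 0.301% at 0.6-fold or less, while 45.8% lay above 0 and 53.8% below.

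**Figure D1:**
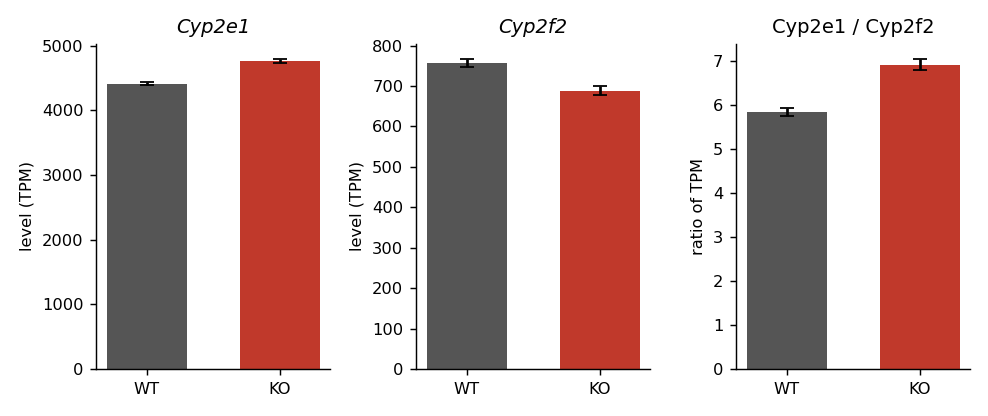
Level of Cyp2e1 and of Cyp2f2 (TPM) and the ratio of their TPM in the WT and KO library (1 pooled library each). Bars are the values and error bars the 95% counting interval; Cyp2e1 is higher in KO (4759.85 against 4411.33 TPM), Cyp2f2 is lower (688.69 against 756.15 TPM), and their ratio goes from 5.83 in WT to 6.91 in KO.

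Changes of this size were common among genes of like abundance. Among 215 other genes averaging 500 TPM or more, the 5th and 95th percentiles of the change were -0.21 and 0.26. Of these genes, 63 (29.3%) changed by at least as much as Cyp2e1 in either direction, and 33 (15.3%) were higher in KO by more than Cyp2e1. For Cyp2f2, 53 of the 215 changed by at least as much in either direction, and 24 (11.2%) were lower by more. Both changes were outside counting error and inside the range of most abundant genes, and how far mice of 1 genotype differ from each other was not measured.

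The ratio of Cyp2e1 to Cyp2f2 within a library does not depend on how the libraries were scaled to each other. Cyp2e1 transcripts were 5.83 times as abundant as Cyp2f2 transcripts in WT (95% interval 5.75 to 5.92) and 6.91 times as abundant in KO (6.80 to 7.03). The ratio was 1.18-fold higher in KO (1.16 to 1.21), a log2 difference of 0.24 (0.21 to 0.28, from the counting variance of the 4 read counts). The KO minus WT difference was 348.52 TPM for Cyp2e1 and -67.46 TPM for Cyp2f2.

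Cyp2e1 was the most abundant P450 transcript in both libraries, and stood at place 29 of 24054 genes in KO and place 30 in WT. It made up 23.9% of all P450 TPM in WT and 22.8% in KO. Its share was thus slightly lower in KO although its level was higher, because the P450 sum went from 18491 to 20894 TPM. The gap to Cyp3a11, the next gene in both libraries and a broad drug-oxidizing enzyme, was smaller in KO. Cyp3a11 stood at 2808.29 TPM in WT against 3952.15 in KO. Cyp2e1 accounted for 14.5% of the difference between the P450 sums.

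Cyp2f2 was the fifth P450 transcript in WT and the seventh in KO, with 4.09% and 3.30% of all P450 TPM. In WT it was followed by Cyp2d10, at 682.58 TPM (673 to 692), whose interval lay below that of Cyp2f2. In KO Cyp2d10, at 692.74 TPM (681 to 704), and Cyp2f2 could not be ranked by their counting intervals, which overlap. Cyp2c50 moved past both, from 581.02 in WT to 725.66 TPM in KO, with an interval of 715 to 737 in KO that lies above theirs. The gene next below Cyp2f2 in KO was Cyp1a2, a pericentral enzyme that oxidizes caffeine, at 576.97 TPM.

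**Figure D2:**
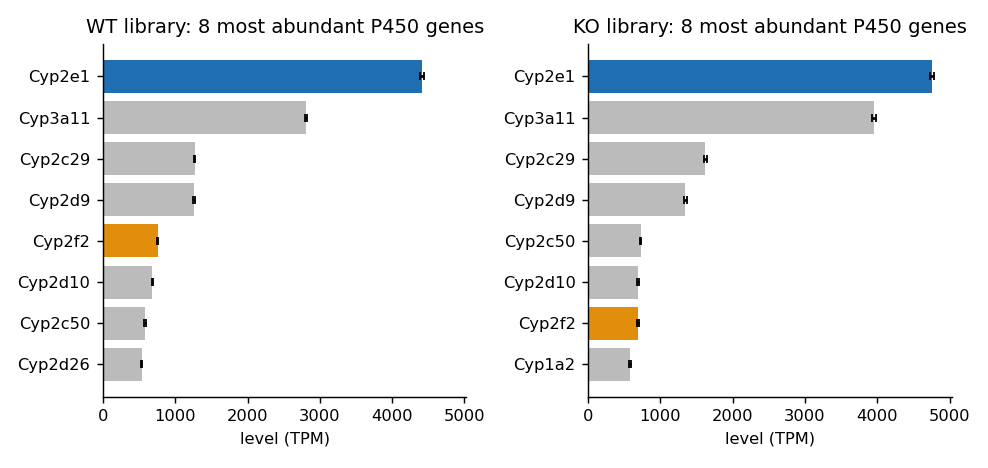
The 8 most abundant P450 genes of each library, in order of level (TPM), with 95% counting intervals as error bars. Cyp2e1 (blue) leads in both libraries, and Cyp2f2 (orange) goes from the fifth place in WT at 756.15 TPM to the seventh in KO at 688.69 TPM.

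Among P450 genes the pair fell on different sides of the middle. Of the 60 P450 genes averaging 1 TPM or more, 38 were above 0 and 22 below, against 45.8% and 53.8% of all 11623 genes. Their median was 0.06, against -0.01 for all genes. The fold thresholds were passed by 11 P450 genes upward and 1 downward, against 1.09% and 0.301% of all genes. Cyp2e1 and Cyp2f2 passed neither threshold. Cyp2e1 lay near the middle, with 26 P450 genes above it. Cyp2f2 lay toward the bottom, with 9 below it. Among the 26 other P450 genes averaging 100 TPM or more, 10 lay above Cyp2e1 and 1 lay below Cyp2f2. The gene below Cyp2f2 was Cyp2a5, a coumarin hydroxylase, at 204.33 TPM in WT against 135.95 in KO. Cyp27a1, the sterol 27-hydroxylase, was the neighbour above Cyp2f2 in that order, with a change of -0.11 (-0.14 to -0.072) whose interval overlaps that of Cyp2f2.

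**Figure D3:**
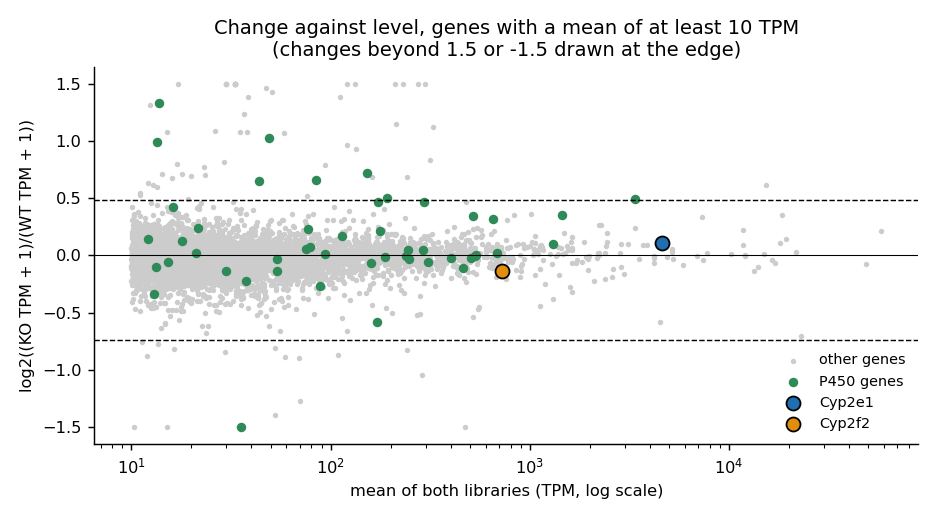
Log2 change (KO over WT, 1 TPM added) against the mean level of both libraries (TPM, log axis) for genes averaging 10 TPM or more; P450 genes are green, dashed lines mark 1.4-fold and 0.6-fold, and changes beyond 1.5 or -1.5 are drawn at the edge. Cyp2e1 (0.11) and Cyp2f2 (-0.13) lie between the thresholds, on opposite sides of 0.

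Reads that could also belong to other genes were looked for in the transcripts. Of the 100-base windows of the Cyp2e1 transcript, 26 of 1734 are also found in transcripts of another gene, and 0 of the 8 genes concerned are P450 genes. For Cyp2f2 they are 82 of 1767 (4.64%), all with Gm15883, a gene that was not analysed here. Windows were matched on either strand. The libraries were stranded, and how reads from the shared windows were assigned was not tested. Cyp2f2 sits in a cluster of Cyp2 genes and Cyp2e1 stands without P450 neighbours within 500 kb. Of the 8 P450 neighbours of Cyp2f2 within that distance, 1 is a pseudogene and was not analysed here. Cyp2b23, Cyp2b19, Cyp2g1 and Cyp2t4 were at or below 0.42 TPM in both libraries. Cyp2a12 was at 405.76 TPM in WT against 400.07 in KO, and its change of -0.02 (-0.061 to 0.02) cannot be told from 0 by counting error. Cyp2a22 was at 2.77 and 2.06 TPM in WT and KO. Cyp2a5, described above, was lower in KO, with a change of -0.58 (-0.65 to -0.52). Cyp2a4, which is not among the 8 neighbours, changed by -5.88 at a mean of 35.55 TPM. Shared windows were not looked for in Cyp2a5 or Cyp2a4, and how reads were assigned between these genes was not tested. The expressed neighbours thus did not share one value, and Cyp2f2 lay between Cyp2a12 and Cyp2a5.

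The remaining genes of each end of the lobule show whether Cyp2e1 and Cyp2f2 stood alone. The pericentral list holds 26 genes without Cyp2e1, all averaging 1 TPM or more. Of these, 19 lay above 0 and 7 below, with a median log2 change of 0.14, and 15 had a counting interval above 0 and 4 below 0. Over all 11623 genes, 45.8% lay above 0 and 53.8% below, and 7.87% and 12.8% had an interval above and below 0. An interval narrows with abundance. Among the 1013 genes averaging 100 TPM or more, 26.9% had one above 0 and 28.0% below 0. The interval counts thus describe the list and its levels together. Cyp2e1 lay below the median of this list, with 15 genes above it. Passing 1.4-fold were Cyp7a1, the first enzyme of bile acid synthesis (32.04 TPM in WT against 66.28 in KO), Tbx3, a Wnt-dependent transcription factor (6.90 and 12.52 TPM), Rnf43, a ligase that dampens Wnt signals (4.72 and 7.84 TPM), and Rhbg, an ammonium transporter (5.76 and 8.52 TPM). No gene of the list passed 0.6-fold, and the lowest was Cyp2a5. Of all genes, 1.09% were at 1.4-fold or more and 0.301% at 0.6-fold or less.

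Of the 12 pericentral genes averaging 100 TPM or more, 6 lay above Cyp2e1 and 6 below it. Glul, the glutamine synthetase of the last ring of cells around the vein, was at 507.25 TPM in WT against 566.28 in KO, a change of 0.16 (0.13 to 0.18). Oat, the ornithine aminotransferase of the same cells, changed by 0.11 (0.079 to 0.15), which overlaps the interval of Cyp2e1. Lect2, a secreted chemotactic factor, changed by 0.11 (0.013 to 0.22), and its interval also holds the Cyp2e1 value. Cyp2c29 (0.35), Cyp1a2 (0.34) and Aldh1a1, a retinal dehydrogenase (0.31), lay above Cyp2e1. Gulo, the last enzyme of vitamin C synthesis, changed by 0.05 and Rgn, the regucalcin gene, by 0.05, both below Cyp2e1. Slco1b2, an organic anion uptake carrier (-0.03), Cyp27a1 (-0.11) and Csad, an enzyme of taurine synthesis (-0.14), and Cyp2a5 (-0.58) went against the direction of Cyp2e1. Axin2 and Lgr5, Wnt targets at a few TPM, changed by 0.07 (-0.19 to 0.33) and 0.38 (0.11 to 0.66).

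The periportal list holds 24 genes without Cyp2f2, all averaging 1 TPM or more. Of these, 5 lay above 0 and 19 below, against 45.8% and 53.8% of all genes, with a list median of -0.15. A counting interval below 0 was found for 16 and above 0 for 1. Over all genes the shares of such intervals were 12.8% below and 7.87% above. Among genes averaging 100 TPM or more, as 18 of the list do, they were 28.0% and 26.9%. These counts, too, describe the list and its levels together. Cyp2f2 was near the middle of the list, with 12 genes below it. The lowest was Apoa4, an apolipoprotein (329.55 TPM in WT against 230.84 in KO, a change of -0.51). The highest was G6pc, the glucose-6-phosphatase that ends gluconeogenesis, at 204.76 TPM in WT against 445.52 in KO, a change of 1.12. It was the only member past a fold threshold, and 1.09% of all genes were at 1.4-fold or more.

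The urea cycle enzymes on the list were all lower in KO. Cps1 changed by -0.13 (-0.14 to -0.12), Asl by -0.09, Arg1 by -0.17 and Ass1, which makes argininosuccinate, by -0.47 (637.35 TPM in WT against 459.74 in KO). The interval of Cps1 lies inside that of Cyp2f2. Pck1, the entry enzyme of gluconeogenesis, changed by -0.21, Sds, a serine dehydratase, by -0.51 and Hsd17b13, a lipid droplet protein, by -0.27. The glutaminase Gls2 and the histidine ammonia lyase Hal changed by -0.17 and -0.16, and Fbp1, the fructose bisphosphatase of gluconeogenesis, by -0.05. Gldc, of the glycine cleavage system, changed by -0.08. Near 0 were Igf1 (-0.01), Uroc1, of histidine breakdown (0.0002), Pigr, the polymeric immunoglobulin receptor (0.02), and Hsd17b6, a steroid dehydrogenase (0.04).

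Relative to the summed level (TPM) of the other genes of its own list, each member kept a similar proportion in both libraries. Cyp2f2 was 0.0565 times the periportal sum in WT and 0.0564 times in KO. Cyp2e1 was 0.650 times the pericentral sum in WT and 0.635 times in KO. The pericentral sum was 0.507 times the periportal sum in WT and 0.614 times in KO, a log2 difference of 0.28, beside 0.24 for the ratio of Cyp2e1 to Cyp2f2. In pooled tissue, fewer cells of a zone and less RNA per cell cannot be told apart. The part of the lobule from which each piece of liver came was not tested.

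**Figure D4:**
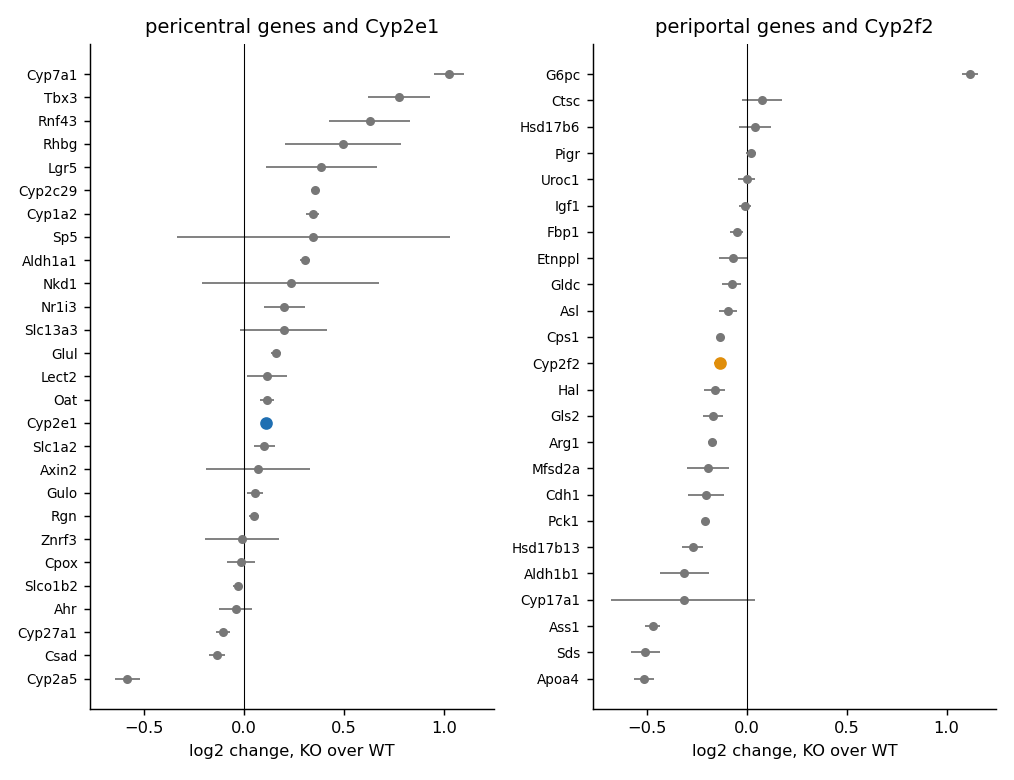
Log2 change (KO over WT, 1 TPM added) of each pericentral gene with Cyp2e1 (blue) and of each periportal gene with Cyp2f2 (orange); points are the values and lines the 95% counting intervals, and 1 periportal gene counted below 0 is not drawn. Of the other pericentral genes 19 of 26 lie above 0, and of the other periportal genes 19 of 24 lie below 0. Over all genes averaging 1 TPM or more, 45.8% lie above 0 and 53.8% below. G6pc stands apart at 1.12.

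Electron donors and heme supply, which both enzymes need, were described from a list of 8 genes. Of these, 3 lay above 0 and 5 below, against 45.8% and 53.8% of all genes. The list median was -0.09, and none of the 8 passed a fold threshold. The summed level of the list was higher in KO (log2 ratio of the sums 0.04), opposite in sign to the median. Por, the reductase that feeds electrons to microsomal P450 enzymes, changed by 0.01 and the cytochrome b5 genes by 0.12 for Cyb5 (Cyb5a, 1548.80 TPM in WT against 1678.54 in KO) and 0.01 for Cyb5b. Cytochrome b5 assists Cyp2e1 in catalysis, and the interval of Cyb5, 0.083 to 0.15, overlaps that of Cyp2e1. Cyb5r3, the reductase of cytochrome b5, changed by -0.20, and Pgrmc2, the homolog of Pgrmc1, by -0.25. In heme metabolism, Alas1, the first enzyme of synthesis, changed by -0.04, Fech, the last, by -0.13 and Hmox1, which degrades heme, by -0.25 at 17.77 TPM in WT against 14.74 in KO.

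Genes of P450 protein turnover, the route by which Cyp2e1 is extracted from the membrane and degraded, tended to be lower. Of 10 genes, 2 lay above 0 and 8 below, with a median of -0.15, 7 had an interval below 0, and none passed a fold threshold. Over all genes 53.8% lay below 0 and 12.8% had an interval below 0, against 28.0% of genes averaging 100 TPM or more. The lowest was Ube2j2, a ubiquitin-conjugating enzyme, at 5.07 and 3.75 TPM (-0.35).

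Around acetaminophen, the drug whose activation Cyp2e1 is known for, the 16 other genes had a median of -0.02. Of these, 7 lay above 0 and 9 below, against 45.8% and 53.8% of all genes. With the authors' library means in place of TPM this median was 0.0035, and the log2 ratio of the summed levels was 0.10, so the sign of the list depended on the measure. Cyp3a11, which also activates the drug, was the highest (0.49). It was the only member at 1.4-fold or more, as were 1.09% of all genes. Cyp1a2 was higher too (0.34), as were the glucuronidating enzymes Ugt1a9 (0.40) and Ugt1a1 (0.27). Genes of glutathione supply lay below 0, with Gclm at -0.02 (-0.094 to 0.048), Gclc at -0.05 (-0.094 to -0.0089) and Gss at -0.11 (-0.23 to 0.0073). The lowest was Gstm1, a glutathione transferase, at 1291 TPM in WT against 948.56 in KO (-0.44).

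Genes of alcohol oxidation other than Cyp2e1 had a median of -0.03 over 7 genes. Of these, 3 lay above 0 and 4 below, against 45.8% and 53.8% of all genes. Counting intervals lay above 0 for 2 of the 7 and below 0 for 3, against 7.87% and 12.8% of all genes. The log2 ratio of the sums was 0.02 and no gene passed a threshold. Adh1, the main liver alcohol dehydrogenase, changed by -0.07, Cat, the catalase, by -0.03 and Aldh2, which oxidizes acetaldehyde, by 0.07. The ends of this list were Aldh1a1 (0.31) and Aldh1b1 (-0.31), which are also members of the pericentral and of the periportal list. Ketone body synthesis, the source of the Cyp2e1 substrate acetone, gave 7 of 7 genes above 0 with a median of 0.06. Of all genes, 45.8% lay above 0. The range of the list ran from 0.01 for Acadm, an acyl-CoA dehydrogenase, to 0.22 for Bdh1, which makes 3-hydroxybutyrate. Of the 7 intervals 4 lay above 0, against 7.87% of all genes and 26.9% of genes averaging 100 TPM or more.

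Transcription factors of the liver and Wnt pathway genes had a median of -0.04 over 16 genes, with none past a threshold. Of the 16, 6 lay above 0 and 10 below, against 45.8% and 53.8% of all genes. Nr1i3, the receptor CAR, was highest (0.20) and Foxa2, a hepatocyte pioneer factor, lowest (-0.48, from 20.96 in WT to 14.70 TPM in KO). Ctnnb1, the β-catenin gene, changed by -0.08 (-0.13 to -0.03) and Tcf7l2, its DNA-binding partner, by 0.11 (-0.12 to 0.34).

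**Figure D5:**
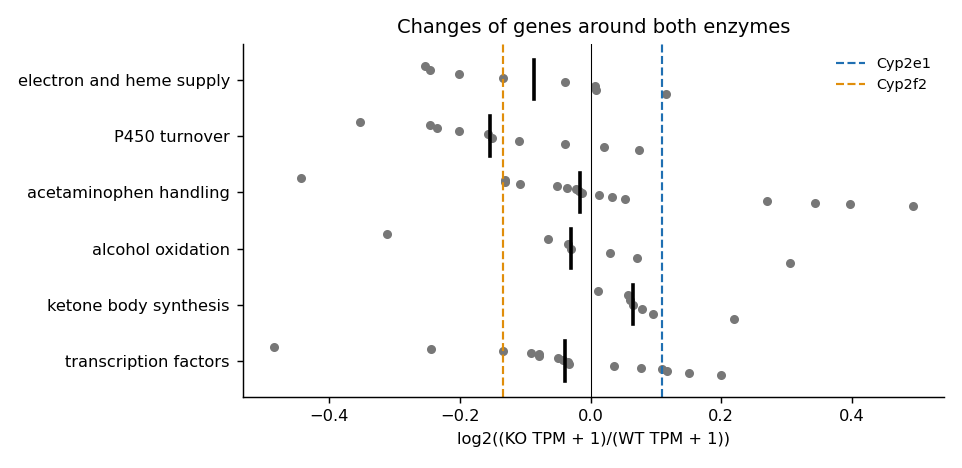
Log2 change (KO over WT, 1 TPM added) of each gene in 6 lists around both enzymes (grey points, spread vertically for view), with the list median as a black bar and the changes of Cyp2e1 and Cyp2f2 as dashed lines. The medians run from -0.15 for P450 turnover to 0.06 for ketone body synthesis, and the 7 ketone body genes all lie above 0.

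With 2 libraries, the genes most like each member are those nearest to it in both levels (distance over log2(TPM + 1) in the 2 libraries). For Cyp2e1 these were Fgb, the fibrinogen beta chain (4479.20 TPM in WT against 4767.61 in KO, distance 0.022), Gstp1 (distance 0.16) and Eef1a1, a translation factor (distance 0.19). For Cyp2f2 they were Hrsp12 (764.29 and 692.21 TPM, distance 0.017), Sephs2, of selenium metabolism (distance 0.071), and Ephx2, the soluble epoxide hydrolase (distance 0.077).

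The libraries held the markers of liver. Hepatocyte genes such as Alb had a median change of -0.01 over 8 genes and a summed level of 98398 TPM in WT against 95540 in KO. Kupffer cell markers were higher in KO in 8 of 8 genes (sum 272.06 TPM in WT against 311.81 in KO, median 0.17). Sinusoidal endothelial markers were lower in 7 of 7 genes (219.24 and 199.52 TPM, median -0.09), and stellate cell markers in 5 of 7 (235.09 and 211.27 TPM, median -0.17). Counting intervals lay above 0 for 4 Kupffer cell genes and below 0 for 3 sinusoidal genes. Of the stellate genes, 3 had an interval below 0 and 1 above. Over all genes 45.8% lay above 0 and 53.8% below, and 7.87% and 12.8% had an interval above and below 0. Markers of cholangiocytes, which line the bile ducts of the portal tract, summed to 66.85 TPM in WT against 61.96 in KO. Of the 4 markers of central vein endothelium, which lies next to the cells rich in Cyp2e1, 3 averaged 1 TPM or more, with values from -0.08 to 0.16, and all 4 summed to 10.49 TPM in WT against 11.17 in KO. Red cell genes had a median of -0.14 over 5 genes in TPM but 0.04 in the authors' means. Club cell markers, from the other tissue known for Cyp2f2, summed to 0.88 TPM in WT against 0.97 in KO, and pancreatic acinar markers to 0.26 and 0.45 TPM. The part of these cell types in the changes of Cyp2e1 and Cyp2f2 was not tested.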

How the data were processed

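Liver RNA was sequenced as paired reads from a stranded total RNA kit. Per the labels and the study's methods, the authors used CASAVA 1.8.2, aligned the reads to mm10 and ran RSEM 1.2.09. They deposited TPM per gene (posterior means), with column totals of 1005325 (KO) and 994702 (WT). Another deposited table gives for 16318 genes the authors' library means, a signal of estimated reads divided by a size factor (EBSeq). Its fold change and probability columns hold the authors' own comparison and were not used. The annotation and the gene filter are not given in the sources used here.

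TPM keeps no depth. The most frequent value of the authors' means (1.16 in KO, 0.860 in WT) was taken as 1 read. Within 0.02 of a whole number, 78.6% and 75.0% of values were whole reads, so no count test was run. Counting intervals (95%) are Clopper-Pearson intervals for changes and exact Poisson intervals for levels, from rounded estimated reads, placed around the TPM values. For the change of the Cyp2e1 to Cyp2f2 ratio a normal interval on the log scale was used. Without replicates no p-value was computed.

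A list was described by its genes averaging 1 TPM or more. Of the list genes, 3 were matched through RefSeq synonyms (Cyb5, Ufd1l and Emr1 in the table). Genes were named by rule: the members, P450 neighbours in level and on the chromosome, the 3 nearest genes, the ends of each list and members past a fold threshold, the redox partners and abundant zone genes. Axin2, Lgr5, Ctnnb1, Tcf7l2, Ugt1a9, Ugt1a1, Gclm, Gclc, Gss, Adh1, Cat, Aldh2, Cyp2c50 and Cyp2a4 were named after their values were seen. Some list members that the rule names are not reported here, though list counts and medians include them. The members and lists were chosen with earlier results of these data known. Sequences are from RefSeq (GRCm38.p6, both members matched) and transcripts from GENCODE on the same assembly. The interval for changes was checked only on simulated Poisson counts. These hold no variation between mice or from library preparation, so the check cannot show how well the interval covers such variation here. The software was Python 3.11.15, scipy 1.17.1, pandas 2.3.3, matplotlib 3.10.9 and numpy 2.4.6.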

Additional observations from a re-analysis of the deposited data

How the results depend on the processing

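No paired analysis was possible because KO and WT have 1 pooled library each. Pooling, not depth, limits Cyp2e1 and Cyp2f2. Of 36 values recomputed for the main results, 24 stayed within counting error or within 1.5 times the count, and no direction changed. The change of Cyp2e1 was 0.125 with the authors' means, 0.123 centred on the median gene and 0.125 centred on the hepatocyte genes. With each library rescaled to the same TPM total it was 0.094. All of these lie outside its counting interval of 0.098 to 0.121, so that interval does not cover the choice of scaling. The change of Cyp2f2 stayed between -0.15 and -0.12 under all 6 alternatives. The log2 difference of their ratio was 0.24 under both. The pericentral median ran from 0.10 to 0.16 and the periportal one from -0.15 to -0.13; leaving out their P450 genes is among these alternatives.

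In place of 127 genes at 1.4-fold or more and 35 at 0.6-fold or less, there were 31 and 13 at 2-fold and 0.5-fold, 48 and 17 when averaging 10 TPM or more was required, 266 and 70 with 0.1 TPM added, and 286 and 72 with the authors' means. The first 2 follow from a stricter rule and the third from the smaller constant. With the authors' means the list medians of acetaminophen handling (0.0035), hepatocyte (0.0040) and red cell genes (0.044) changed sign; the cause was not tested.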
